A study of Mus musculus with 2 samples.

Results

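The 35 genes described here encode part of the mouse machinery for cholesterol. They cover 19 enzymes that build it and the control of sterol regulatory element-binding protein 2 (SREBP2). The others are factors for control of the low-density lipoprotein (LDL) receptor, transport, esterification, ester hydrolysis and efflux. All 35 were chosen by name from what is known of the pathway, but with earlier results of these data known. They make up 35 of the 24421 rows of the count table. All 35 were present and all passed the minimum used here, a mean of 1 CPM (counts per 1000000 counts of the library). Whole ovaries were sequenced as total RNA depleted of ribosomal RNA. There was 1 library from an H19 knockout (H19KO, described as H19(Δ3)) and 1 from the wild type (WT). Both were labelled C57BL/6J, 8 weeks of age and without special treatment. H19 is an imprinted long noncoding RNA, and the comparison describes how ovarian gene levels differed between the H19KO and WT libraries. Dependence of a gene on H19 was not tested. The labels do not give the number of animals behind a library or the cell types in which H19 was lost.

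Cholesterol is made from acetyl-CoA through mevalonate, the isoprenoid diphosphates, squalene and lanosterol. When membranes of the endoplasmic reticulum hold little cholesterol, SCAP escorts SREBP2 to the Golgi apparatus, where it is cleaved into a transcription factor for most of these enzymes. INSIG proteins hold SCAP back when sterol is plentiful. Oxysterols activate the liver X receptors (LXRs), which raise efflux transporters. Ovarian steroid-producing cells, in particular those of the corpus luteum, need much cholesterol for progesterone and take it from lipoproteins, from new synthesis and from stored esters.

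The H19KO library held 23041225 counts and the WT library 23335131. H19 had 0 counts in the H19KO library and 672 in the WT library. A count of 0 allows up to 3 counts, which puts the H19KO library at least 222-fold lower than the WT library for H19. With 1 library per genotype no difference has a replicate check, no test is possible and no p-value is given. Ratios are H19KO over WT on the log2 scale after TMM scaling, with 0.5 added to each scaled count. The bracketed ranges are exact binomial 95% intervals. They account for counting error alone, and variation between mice or between preparations is not in them. A gene is called lower or higher here when its whole interval lay beyond 0.32 log2 units on either side of equal. This limit, too, was chosen with earlier results of these data known.

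Cholesterol synthesis genes were lower in the H19KO library, and of the 16 other members 1 was called lower and 1 higher. These 16 hold no lipoprotein receptor. Of the 35 genes, 12 were called lower, or 34.3%, whereas 3.42% of all 13928 measured genes were. In the other direction 1 of 35 was called higher, or 2.86%, against 4.20% of all measured genes. Of the 12 lower genes, 11 were synthesis enzymes and the other was Insig1. The median log2 ratio was -0.43 over the 19 enzymes and -0.01 over the 16 other genes, while that of all measured genes was -0.01. The middle 95% of all measured genes spanned -0.67 to 0.79. In whole tissue, fewer cells of a type and less RNA per cell cannot be told apart, and 7 of 12 granulosa cell markers, given further on, were called lower as well.

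The size of the differences was moderate. Intervals lay below 0 for 25 members and above 0 for 7, against 24.0% and 22.2% of all measured genes. Intervals beyond 1.5-fold left 5 members lower, Mvd, Idi1, Fdft1, Lss and Hsd17b7, where 1.21% of all genes were, and 0 higher, where 1.80% were. No member had an interval beyond 2-fold, where the share of all genes was 0.388% lower and 0.610% higher. A call by the whole interval is easier to reach for a gene with more counts. By the point ratio alone, past the limit of 0.32, 14 members, or 40%, were lower, against 10.8% of all genes. In the other direction 2, or 5.71%, were higher, against 11.3% of all genes.

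**Figure D1:**
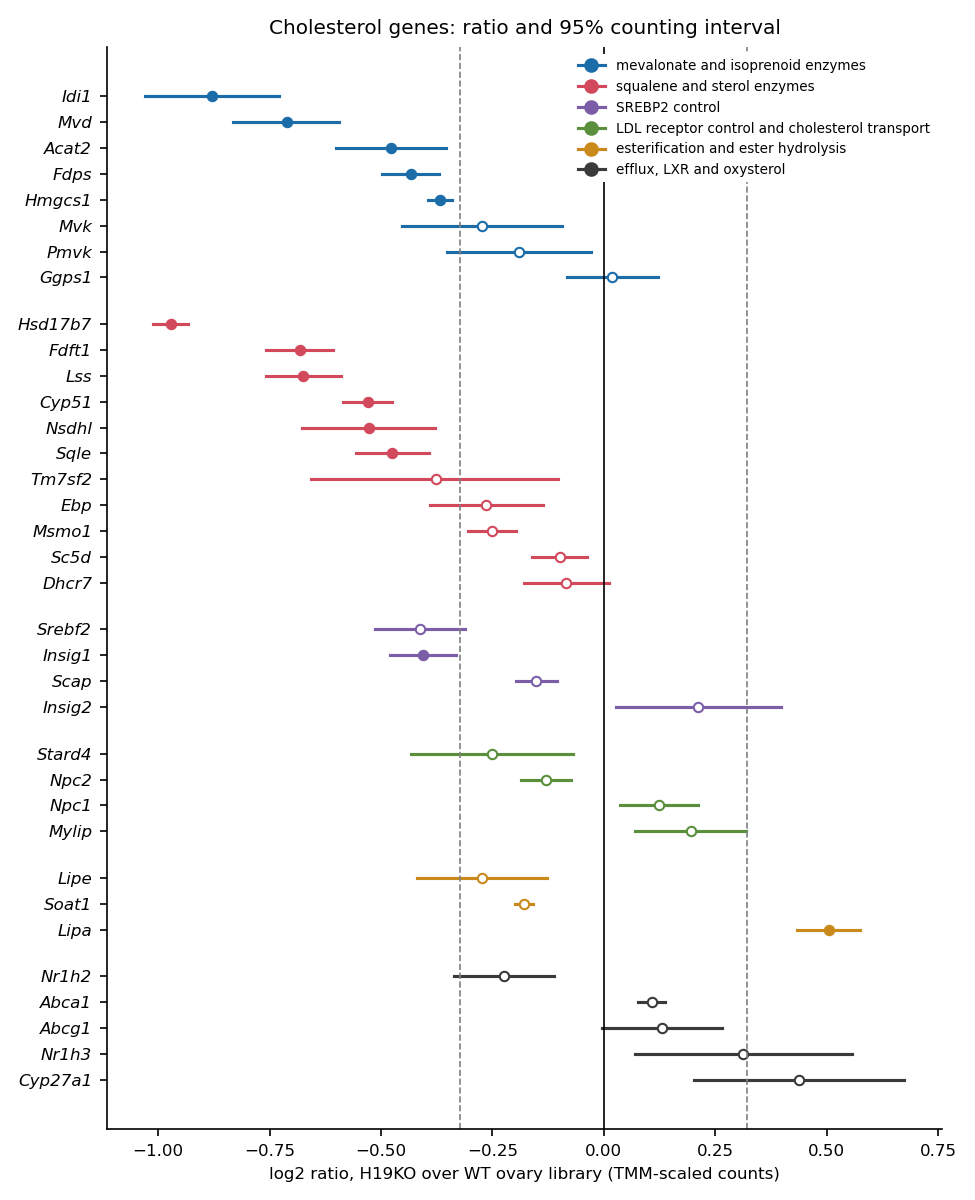
Log2 ratio of each of the 35 cholesterol genes (x axis, H19KO over WT, TMM-scaled counts), grouped and coloured by role. Points are the ratios, bars the 95% counting intervals of 1 library per genotype, dashed lines the limit of 0.32, and filled points the genes whose whole interval lay beyond it. The filled points are 11 synthesis enzymes and Insig1 on the lower side and Lipa on the higher side.

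**Figure D2:**
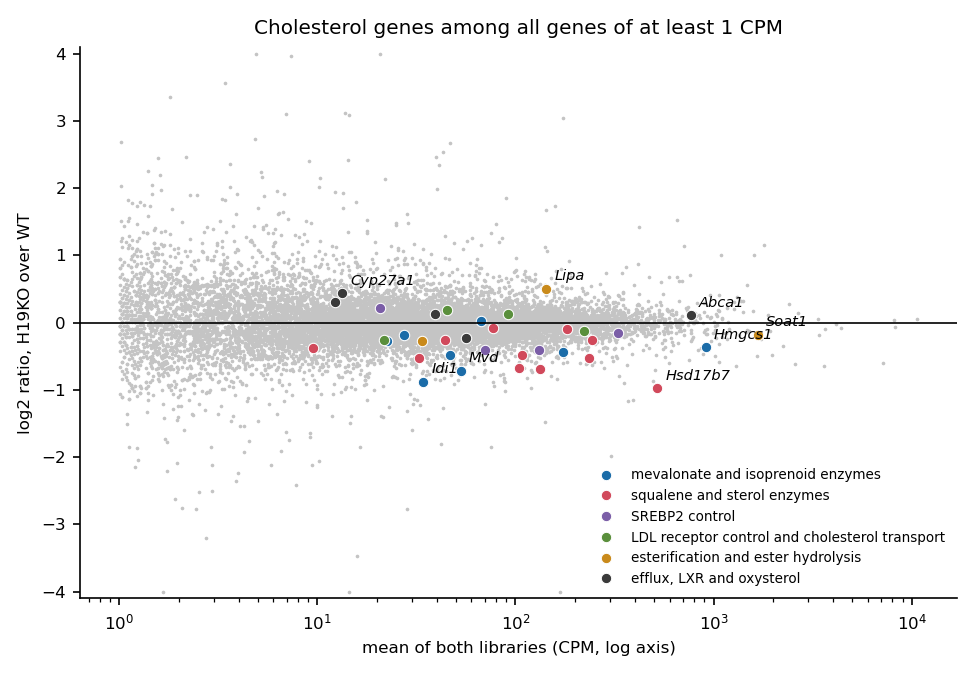
Log2 ratio (y axis, H19KO over WT) against the mean of both libraries in CPM (x axis, log scale) for the 13928 measured genes in grey and the 35 cholesterol genes in colour by role. The axis ends at 4 log2 units, and 5 genes beyond it are drawn at its edge. The enzymes lie below 0 at every level of expression at which they occur, except Ggps1 at 0.02.

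Promoter sequence is shown first for 5 genes on which the results turn: Hsd17b7 and Idi1, the members with the lowest ratios, Mvd, the next lowest, Hmgcs1, the only one of the 29 members with a promoter window that holds a sterol regulatory element core, and Lipa, the only gene called higher. Each is the 250 bases before the start annotated by RefSeq (GRCm38.p6), written 5′ to 3′ on the strand of the gene. Capitals mark the core of the sterol regulatory element that SREBP2 binds (TCACNCCAC) and the CCAAT box that its partner NF-Y binds, which reads ATTGG on the other strand.
Hsd17b7, chr1:169969206-169969455, minus strand: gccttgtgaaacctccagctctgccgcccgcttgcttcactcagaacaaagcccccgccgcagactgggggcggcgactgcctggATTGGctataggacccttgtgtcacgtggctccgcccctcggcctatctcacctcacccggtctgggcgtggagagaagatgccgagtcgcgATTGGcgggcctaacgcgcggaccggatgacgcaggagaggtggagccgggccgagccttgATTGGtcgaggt
Idi1, chr13:8885356-8885605, plus strand: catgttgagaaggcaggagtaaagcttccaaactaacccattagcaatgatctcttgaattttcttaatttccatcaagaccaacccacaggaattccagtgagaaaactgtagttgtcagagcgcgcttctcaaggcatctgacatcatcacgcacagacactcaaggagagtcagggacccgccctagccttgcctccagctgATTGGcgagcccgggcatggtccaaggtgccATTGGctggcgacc
Mvd, chr8:122443423-122443672, minus strand: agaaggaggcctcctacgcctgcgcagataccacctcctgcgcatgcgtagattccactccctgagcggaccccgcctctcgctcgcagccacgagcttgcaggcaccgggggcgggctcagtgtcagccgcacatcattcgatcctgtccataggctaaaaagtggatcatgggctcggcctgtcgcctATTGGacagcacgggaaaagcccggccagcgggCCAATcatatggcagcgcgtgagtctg
Hmgcs1, chr13:119690101-119690350, plus strand: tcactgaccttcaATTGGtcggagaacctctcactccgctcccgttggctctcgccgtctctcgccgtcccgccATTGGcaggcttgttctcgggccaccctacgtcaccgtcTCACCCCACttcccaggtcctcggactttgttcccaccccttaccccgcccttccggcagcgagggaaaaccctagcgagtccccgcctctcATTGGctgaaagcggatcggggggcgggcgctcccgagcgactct
Lipa, chr19:34527475-34527724, minus strand: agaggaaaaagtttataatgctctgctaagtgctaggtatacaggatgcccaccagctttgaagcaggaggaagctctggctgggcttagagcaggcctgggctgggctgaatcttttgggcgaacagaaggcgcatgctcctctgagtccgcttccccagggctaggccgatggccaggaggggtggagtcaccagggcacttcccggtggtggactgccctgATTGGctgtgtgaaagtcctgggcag

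Windows of 300 bases, 250 before to 50 after each start, were found for 29 of the 35 members. Fdps, Fdft1, Sqle, Npc1, Stard4 and Abcg1 had none and were not searched. A CCAAT box on either strand was present in 23 of these 29 genes, or 79.3%, against 42.4% of the 10528 measured genes with a window. Over single windows the shares were 23 of 37 for the members, and 37.4% of all 32851 windows. In Hsd17b7 the boxes begin 165, 73 and 12 bases upstream, and in Idi1 45 and 14 bases upstream. Hmgcs1 holds 4 in its window, of which 3 lie in the printed sequence. The box was not limited to the lower genes. Lipa has 1, Mylip and Insig2 have 3 each, and Ggps1, the enzyme with the highest ratio, has 3. The median log2 ratio was -0.26 over the 23 members with a box and -0.19 over the 6 without.

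The sterol regulatory element core was matched in Hmgcs1 alone of the 29 members searched, 137 bases upstream as TCACCCCAC, and in 1.52% of measured genes. The Sp1 box (GGGCGG, either strand) was in 25 of 29 members, or 86.2%, and in 67.9% of measured genes. The site CAAGGTCA, bound by the ovarian receptors NR5A1 and NR5A2, was in 1 member, Dhcr7, and in 1.30% of measured genes. The direct repeat of AGGTCA with 4 bases between, which LXR binds, was in 0 of the 37 member windows and in 5 of all windows. A match describes these letters only, and other spellings of a site were not searched.

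**Figure D3:**
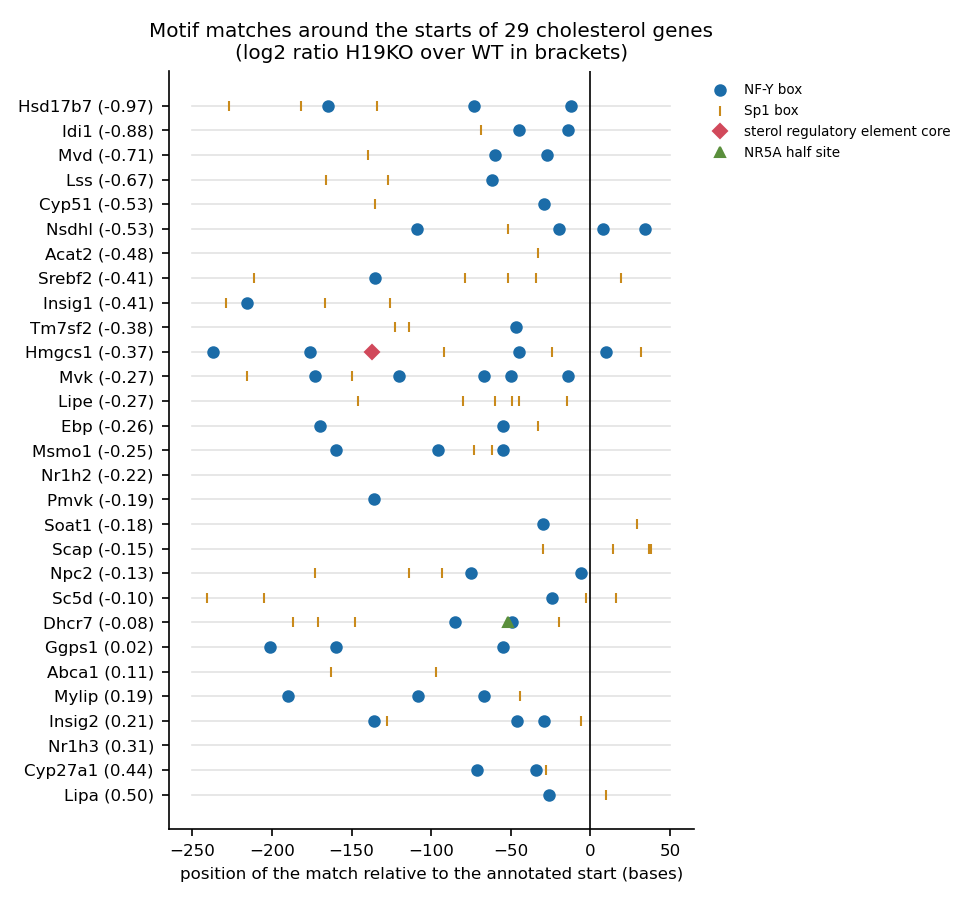
Position of motif matches relative to the annotated start (x axis, bases) for the 29 cholesterol genes with a RefSeq window, from the lowest log2 ratio at the top to the highest at the bottom. Windows of a gene with several starts share a line. CCAAT boxes occur in both the lowest genes, such as Hsd17b7 at -0.97, and the highest, Lipa at 0.50.

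The mevalonate and isoprenoid enzymes were lower by amounts that differed from step to step. Of the 8, 5 were called lower and 0 higher, with a median log2 ratio of -0.40. Acat2, the cytosolic thiolase that joins acetyl-CoA units, had 908 counts in the H19KO library and 1271 in the WT library, a log2 ratio of -0.48 (-0.60 to -0.35). Hmgcs1, which makes HMG-CoA, had 18440 and 23922 counts in the H19KO and WT libraries, 22.5% lower in the H19KO library. Acat2 and Hmgcs1 are the entry to the pathway, and their intervals lay apart from 0 but well short of 2-fold.

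Mevalonate is phosphorylated by MVK and then PMVK, and these steps were nearest to equal among the early ones. Mvk had 468 counts in the H19KO library and 569 in the WT library (log2 ratio -0.27, -0.45 to -0.09), and Pmvk had 591 in the H19KO library and 678 in the WT library (-0.19, -0.35 to -0.03). Neither was called. The following step, decarboxylation by MVD, was lower, with 927 counts in the H19KO library and 1527 in the WT library, a log2 ratio of -0.71 (-0.83 to -0.59). The count of Mvd per count of Pmvk, which needs no library scaling, was 1.57 in the H19KO library and 2.25 in the WT library. Its log2 change was -0.52 (-0.72 to -0.32).

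Idi1, the isomerase that forms dimethylallyl diphosphate, had the lowest ratio of the group. It had 557 counts in the H19KO library and 1030 in the WT library, which is 45.6% lower in the H19KO library, with a log2 ratio of -0.88 (-1.03 to -0.73). Only 1.29% of all measured genes had a lower ratio than Idi1. Fdps, which makes farnesyl diphosphate, had 3432 counts in the H19KO library and 4662 in the WT library, a log2 ratio of -0.43 (-0.50 to -0.37).

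Ggps1, which makes geranylgeranyl diphosphate for protein prenylation and lies on a branch away from sterols, was the only one of the 19 enzymes with a ratio above 0. It had 1558 counts in the H19KO library and 1546 in the WT library, a log2 ratio of 0.02 (-0.08 to 0.12). The ratio of Fdps to Ggps1 counts was lower in the H19KO library by a log2 change of -0.45 (-0.57 to -0.33). The 13 other enzymes of isoprenoid branches, such as dolichol and ubiquinone synthesis and prenyl transfer, ranged from -0.53 for Pdss1 to 0.17 for Coq2 on the log2 scale. None of the 13 was called in either direction, their median log2 ratio was -0.03, and the most abundant, the farnesyltransferase subunit Fnta, had 2297 counts in the H19KO library and 2088 in the WT library.

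All 11 squalene and sterol enzymes had a ratio below 0, 6 were called lower and 0 higher, and the median log2 ratio was -0.47. Fdft1, squalene synthase and the first step committed to sterols, had 2355 counts in the H19KO library and 3802 in the WT library (log2 ratio -0.68, -0.76 to -0.61). Sqle, squalene epoxidase, had 2094 counts in the H19KO library and 2926 in the WT library (-0.47, -0.56 to -0.39). Lss, which closes the rings to form lanosterol, had 1859 counts in the H19KO library and 2984 in the WT library (-0.67, -0.76 to -0.59). These neighbouring steps were thus lower by 28.0% for Sqle, 37.7% for Fdft1 and 37.3% for Lss. Squalene epoxidase is a rate-limiting enzyme of the pathway.

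Lanosterol is then demethylated, reduced and rearranged. Cyp51, the lanosterol demethylase, had 4453 counts in the H19KO library and 6467 in the WT library (log2 ratio -0.53, -0.59 to -0.48). Nsdhl and Hsd17b7 act in the removal of the methyl groups at carbon 4. Nsdhl had 621 counts in the H19KO library and 900 in the WT library (-0.53, -0.68 to -0.38). Msmo1, the oxidase that opens that series, had 5148 counts in the H19KO library and 6162 in the WT library, a log2 ratio of -0.25 (-0.31 to -0.20) that was not called.

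Hsd17b7 (mm10 chr1, 169949535 to 169969241, minus strand) had the lowest ratio of all 35 genes and was 49.0% lower in the H19KO library. It had 8094 counts in the H19KO library and 15971 in the WT library, and 0.991% of measured genes had a lower ratio. Its protein is the 3-ketosteroid reductase of cholesterol synthesis and, in the rodent corpus luteum, also reduces oestrone to oestradiol, where it was named for its association with the prolactin receptor. Hsd17b7 per Hmgcs1 was 0.439 counts in the H19KO library and 0.668 in the WT library, a log2 change of -0.61 (-0.65 to -0.56). Hsd17b7 per Nsdhl, its neighbour in the pathway, was 13.0 in the H19KO library and 17.7 in the WT library, a log2 change of -0.45 (-0.60 to -0.29). The difference in Hsd17b7 therefore exceeded those of both other enzymes beyond counting error.

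Among the remaining steps, Sc5d and Dhcr7 were nearest to equal. Tm7sf2, a sterol reductase and the least abundant member, had 192 counts in the H19KO library and 251 in the WT library (log2 ratio -0.38, -0.66 to -0.10). Ebp, the sterol isomerase, had 927 counts in the H19KO library and 1119 in the WT library (-0.26, -0.39 to -0.14). Sc5d, the desaturase, had 4073 counts in the H19KO library and 4385 in the WT library (-0.10, -0.16 to -0.04). Dhcr7, the last reductase of one route, had 1734 counts in the H19KO library and 1848 in the WT library (-0.08, -0.18 to 0.01). None of these 4 was called. Dhcr7 is also the member nearest to H19 in the genome. It lies on chromosome 7 at 143823145 to 143848410, plus strand (mm10, GENCODE M21). H19 lies on the minus strand, and Dhcr7 is 1245002 bases beyond its upstream edge at 142578143.

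Summed over the 19 enzymes, the H19KO library held 2527 CPM and the WT library 3527 CPM, a difference of 28.4% and a log2 ratio of -0.48 (-0.50 to -0.47). Hmgcs1 and Hsd17b7 were the most abundant enzymes. Without both, the sum was 1379 CPM in the H19KO library and 1812 CPM in the WT library, 23.9% lower, and 9 of the 17 remaining enzymes were called lower.

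Several of these rows share sequence with other genes. Exons of Fdft1 overlap those of Ctsb on the opposite strand over 774 bases, exons of Fdps overlap Gm43738 on the same strand over 1124 bases, and exons of Tm7sf2 overlap Vps51 on the same strand over 532 bases. Ctsb had 22781 counts in the H19KO library and 18622 in the WT library. Acat2 is 97.7% identical over 1477 bases to Acat3, which had 3 counts in the H19KO library and 5 in the WT library, and it shares 445 bases with Tcp1. Idi1, Fdft1 and Ggps1 have near-identical copies with no row of their own. The labels do not state how shared reads or strands were counted, so these 6 values are uncertain to that extent. Overlaps with other genes, most of them on the opposite strand, also touch exons of Cyp51, Hmgcs1, Lss, Scap, Lipe, Npc1 and Nr1h3. They reach 985 bases in Scap and 918 in Lipe, and the values of these genes are uncertain in the same way.

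The genes that control SREBP2 did not all lie on one side. Srebf2, which encodes SREBP2 and is itself among its targets, had 1401 counts in the H19KO library and 1874 in the WT library. Its log2 ratio was -0.41 (-0.51 to -0.31), and the upper bound just missed the limit of -0.32. Insig1, the sterol-regulated retention factor and an SREBP target, was called lower, with 2603 counts in the H19KO library and 3466 in the WT library (-0.41, -0.48 to -0.33). This call is marginal: under total count scaling the interval of Insig1 ended just inside the limit, which left 11 members called lower. Insig2, its relative, had 516 counts in the H19KO library and 448 in the WT library (0.21, 0.03 to 0.40). There were 5.04 Insig1 counts per Insig2 count in the H19KO library and 7.74 in the WT library, a log2 change of -0.62 (-0.82 to -0.42).

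Scap, the escort protein, had 7188 counts in the H19KO library and 8028 in the WT library (log2 ratio -0.15, -0.20 to -0.11). The ratio of Srebf2 to Scap counts was 0.195 in the H19KO library and 0.233 in the WT library. Of 8 further genes of SREBP processing and sterol-regulated degradation, a list that includes Srebf1 for the related factor SREBP1, none was called. The median log2 ratio was 0.10, and Mbtps1, the site-1 protease that cleaves SREBPs, had 7000 counts in the H19KO library and 6895 in the WT library.

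Of the 4 genes of LDL receptor control and cholesterol transport, 0 were called, and the median log2 ratio was -0.00. The intervals of 2 of them lay below 0 and those of the other 2 above 0. Mylip, the LXR-induced ubiquitin ligase that degrades the LDL receptor, had 1120 counts in the H19KO library and 984 in the WT library (log2 ratio 0.19, 0.07 to 0.32). Stard4, a soluble sterol carrier, had 459 counts in the H19KO library and 549 in the WT library (-0.25, -0.43 to -0.07). Npc1 and Npc2 pass cholesterol out of the lysosome in sequence. Npc1 had 2210 counts in the H19KO library and 2040 in the WT library (0.12, 0.04 to 0.21), and Npc2 had 4912 in the H19KO library and 5406 in the WT library (-0.13, -0.19 to -0.07). The ratio of Npc1 to Npc2 counts was 0.450 in the H19KO library and 0.377 in the WT library.

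Outside the module, lipoprotein receptors and adaptors included 2 of 6 genes called lower, where 3.42% of all measured genes were. Lrp8, the receptor ApoER2, had 1915 counts in the H19KO library and 3405 in the WT library, a log2 ratio of -0.82 (-0.90 to -0.74). Scarb1, the HDL receptor and the most abundant of the 6, had 17242 counts in the H19KO library and 23939 in the WT library (-0.47, -0.49 to -0.44). None of 12 sterol transfer genes was called, and the most abundant, Star, which moves cholesterol into mitochondria, had 45413 counts in the H19KO library and 42202 in the WT library.

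Storage and release of cholesterol esters went in both directions. Soat1, which esterifies cholesterol, was the member with the most counts, 36348 in the H19KO library and 41372 in the WT library, and a log2 ratio of -0.18 (-0.20 to -0.16). Lipe, the hormone-sensitive lipase that releases cholesterol from droplets, had 706 counts in the H19KO library and 858 in the WT library (-0.27, -0.42 to -0.13). Lipa, the lysosomal acid lipase that hydrolyses esters brought in with lipoproteins, was the only member called higher. It had 3887 counts in the H19KO library and 2755 in the WT library, which is 1.42-fold higher (1.35 to 1.49).

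Soat1 per Lipa was 9.35 counts in the H19KO library and 15.0 in the WT library, a log2 change of -0.68 (-0.76 to -0.61). Soat1 per Lipe was 51.5 in the H19KO library and 48.2 in the WT library, with an interval of the log2 change that held 0 (-0.05 to 0.24). Lipa per Lipe was 5.51 counts in the H19KO library and 3.21 in the WT library, so the lysosomal lipase stood higher relative to the droplet lipase. Among 3 further ester enzymes none was called, and Nceh1, the most abundant, had 2535 counts in the H19KO library and 2352 in the WT library.

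Efflux and LXR genes had a median log2 ratio of 0.13 and none of the 5 was called. Abca1, which loads cholesterol onto apolipoprotein A-I, had 18384 counts in the H19KO library and 17163 in the WT library (0.11, 0.08 to 0.14). Abcg1, which exports to HDL, had 945 counts in the H19KO library and 868 in the WT library (0.13, -0.00 to 0.27). Both are LXR targets, and their ratio to each other was 19.5 counts of Abca1 per Abcg1 in the H19KO library and 19.8 in the WT library.

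Nr1h3, which encodes LXRα, had 315 counts in the H19KO library and 255 in the WT library (log2 ratio 0.31, 0.07 to 0.56). Nr1h2, which encodes LXRβ, had 1201 counts in the H19KO library and 1410 in the WT library (-0.22, -0.34 to -0.11). Nr1h3 per Nr1h2 was 0.262 in the H19KO library and 0.181 in the WT library, a log2 change of 0.54 (0.27 to 0.81). Cyp27a1, the mitochondrial enzyme that makes 27-hydroxycholesterol, had 353 counts in the H19KO library and 262 in the WT library (0.44, 0.20 to 0.67). Its point ratio passed the limit but its interval did not.

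Of 6 measured genes among 8 further efflux and lipoprotein genes, 1 was called higher: Apoa1, with 949 counts in the H19KO library and 672 in the WT library (log2 ratio 0.51, 0.36 to 0.65). Abca7 was the most abundant, with 1182 counts in the H19KO library and 1282 in the WT library. Abcg5 and Abcg8 were under the minimum, with 2 and 0 counts in the H19KO library and 1 and 4 in the WT library. Of 5 measured oxysterol and bile acid enzymes, 1 was called higher, Ch25h, which makes 25-hydroxycholesterol, at only 63 counts in the H19KO library and 29 in the WT library (1.11, 0.47 to 1.81). Hsd3b7 was the most abundant, with 444 counts in the H19KO library and 354 in the WT library. Cyp46a1 and Sult2b1 were under the minimum, with 21 and 8 counts in the H19KO library and 20 and 9 in the WT library. Over all 53 measured sterol genes outside the module, 2 were called lower and 2 higher, and the median log2 ratio was 0.01. These counts are close to the shares of all measured genes, 3.42% lower and 4.20% higher.

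Levels per length placed Hmgcs1 and Soat1 at the top of the module in both libraries. On the TPM scale, transcripts per 1000000 from counts per kilobase of annotated exon, Hmgcs1 stood at 644 TPM in the H19KO library and 787 TPM in the WT library. Soat1 stood at 596 TPM in the H19KO library and 638 TPM in the WT library. Hsd17b7 stood at 255 TPM in the H19KO library, the fourth there, and at 473 TPM in the WT library, the third there. In the H19KO library it was below Abca1, which stood at 285 TPM in the H19KO library and 250 TPM in the WT library. Soat1, Hmgcs1 and Hsd17b7 made up 39.4% of the module's TPM in the H19KO library and 42.4% in the WT library. Tm7sf2 was the lowest member in both libraries.

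The order of levels shifted most for Lipa, the 12th in the H19KO library and the 18th in the WT library, and for Idi1, the 29th in the H19KO library and the 24th in the WT library. TPM ratios run 0.08 log2 units above the TMM-scaled ratios for every gene, because the TPM total weighs genes by length, so direction is taken from the scaled counts. Across the 35 members, which share 2 libraries and are not independent, the log2 ratio and the log2 mean TPM of both libraries had a Pearson correlation of -0.26 and a Spearman correlation of -0.25.

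**Figure D4:**
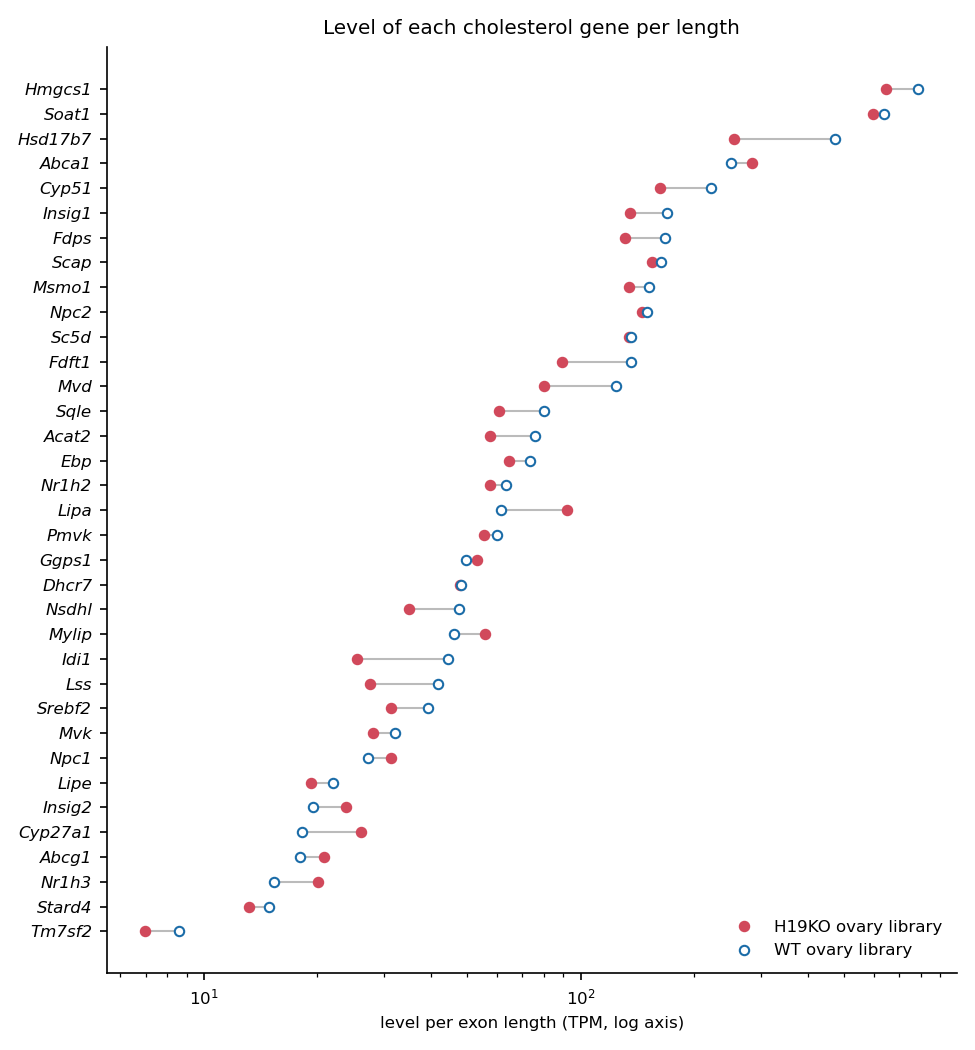
Level of each of the 35 cholesterol genes per exon length (x axis, TPM, log scale) in the H19KO library (filled red) and the WT library (open blue), ordered by the WT level. Hmgcs1 and Soat1 are highest in both libraries, Hsd17b7 is at 255 TPM in the H19KO library and 473 TPM in the WT library, and Lipa stands to the right of its WT value.

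Genes of neighbouring pathways were set beside the module, with 3.42% of all measured genes called lower and 4.20% higher. In fatty acid synthesis 5 of 15 genes were called lower and 1 higher, with a median log2 ratio of -0.18. The lower ones included the desaturases Scd2, Fads1 and Fads2. Scd2 had 47128 counts in the H19KO library and 72685 in the WT library, a log2 ratio of -0.62 (-0.63 to -0.60), and Fads2 had 5009 in the H19KO library and 7573 in the WT library. The higher one was Me1, which supplies NADPH, with 33687 counts in the H19KO library and 16901 in the WT library. Steroid hormone synthesis had 3 of 11 genes called lower, Cyp17a1, Cyp19a1 and Akr1c18, and 0 higher, with a median of -0.09. Akr1c18, which inactivates progesterone, had 1229 counts in the H19KO library and 2378 in the WT library. Hsd3b1, the most abundant of the 11, had a log2 ratio of -0.06. With 1 library per genotype, the difference between these medians and that of the 19 enzymes, -0.43, was not tested.

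Markers of ovarian cell types differed as well, in both directions. Of all measured genes, 3.42% were called lower and 4.20% higher. Of the granulosa cell markers, 7 of 12 were called lower and 0 higher, with a median log2 ratio of -0.48 and a summed level of 4282 CPM in the H19KO library and 5552 CPM in the WT library. Of the luteal markers 3 of 7 were called lower, Lhcgr, Ptgfr and Akr1c18, with a median of -0.18 and a sum of 7737 CPM in the H19KO library and 8427 CPM in the WT library. The theca and interstitial list had 1 of 5 measured genes called lower, Cyp17a1, and 1 higher, Mgarp, with a median of -0.14. Its sum, most of it Aldh1a1, was 3621 CPM in the H19KO library and 3277 CPM in the WT library. Cyp17a1 had 2834 counts in the H19KO library and 11243 in the WT library (log2 ratio -1.98), and the theca marker Insl3 had 2 counts in the H19KO library and 1 in the WT library. Of the oocyte markers 1 of 10 was called lower, Zp3, with a sum of 369 CPM in the H19KO library and 458 CPM in the WT library. No marker of these 4 lists was at 0 counts. The part of granulosa and luteal cells in the enzyme differences was not tested.

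Macrophages are rich in lysosomal lipase and LXRα, and most of their markers had ratios above 0, as did Lipa, Nr1h3 and Cyp27a1. Of 8 macrophage markers 1 was called higher, Lyz2, where 4.20% of all measured genes were. An interval above 0 was found for 6, Lyz2 among them, against 22.2% of all measured genes. Csf1r had one below 0, with a log2 ratio of -0.24 (-0.35 to -0.13). Their median log2 ratio was 0.31, and their sum was 606 CPM in the H19KO library and 482 CPM in the WT library. Stromal markers had 4 of 6 called higher, with a median of 0.50 and a sum of 3911 CPM in the H19KO library and 2781 CPM in the WT library. Smooth muscle markers had 1 of 4 called higher, with a sum of 1669 CPM in the H19KO library and 1337 CPM in the WT library. None of 5 endothelial markers was called, with a sum of 467 CPM in the H19KO library and 546 CPM in the WT library. Of the adipocyte markers Plin1 had 253 counts in the H19KO library and 341 in the WT library, and Fabp4 had 96 in the H19KO library and 65 in the WT library. Adipoq had 3 counts in the H19KO library and 5 in the WT library. Lep and Retn each had 0 counts in the H19KO library, and 1 and 6 in the WT library. Cfd and Cidec went the other way, with 33 and 8 counts in the H19KO library and 12 and 3 in the WT library. Plin1 and Fabp4 were the 2 of 7 markers that reached the minimum, and neither was called. The part of macrophages and stroma in the higher values was not tested.

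**Figure D5:**
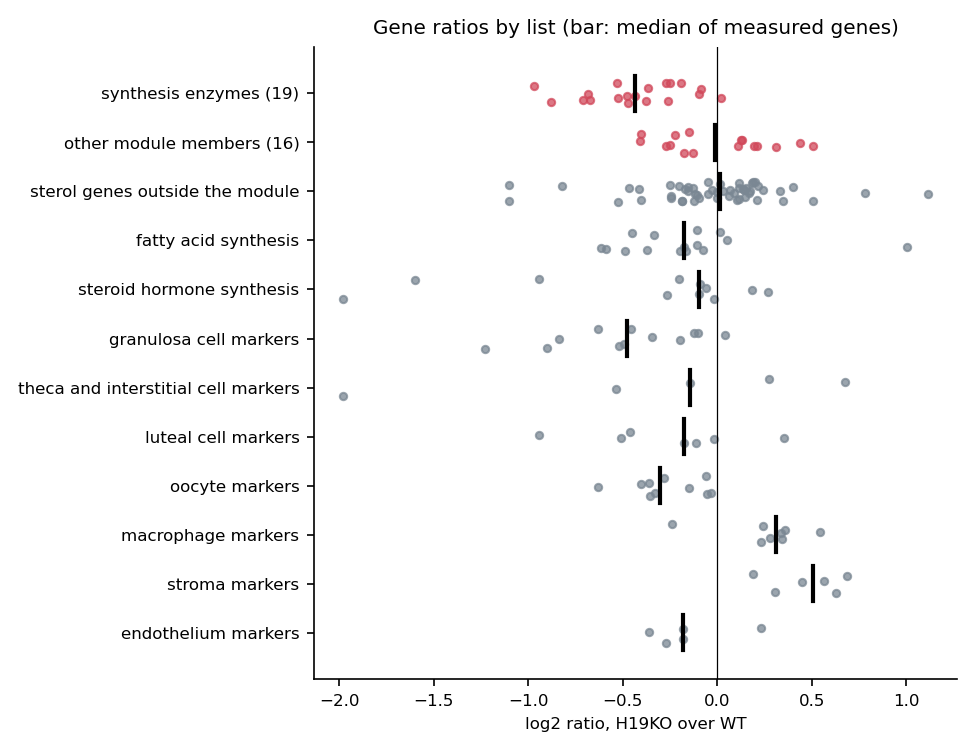
Log2 ratio of each measured gene (x axis, H19KO over WT) by list, with the cholesterol genes in red and the other lists in grey; black bars are the medians of 1 library per genotype. The synthesis enzymes have a median of -0.43, beside -0.48 for granulosa cell markers, 0.31 for macrophage markers and 0.50 for stromal markers.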

How the data were processed

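Total RNA from mouse ovaries was measured in 1 H19KO and 1 WT library. Per the labels' protocols, ribosomal RNA was depleted and stranded libraries were sequenced with paired ends. The authors deposited whole-number counts per gene symbol. The submitters' processing notes name STAR 2.5.0a, Cufflinks 2.2.1, DESeq2 1.0.0 and mm10, without their roles. How reads were assigned to genes, with which annotation and strand option, is not given in the sources used here. No small whole number was absent below 937 in the H19KO library or 527 in the WT library. Median-of-ratios scaling, however, gave both libraries the same size, 23187712, although their totals differed. Counts that were already scaled and rounded could give this too, so whether the counts are raw cannot be settled. The binomial intervals assume raw counts. The 27 rows that carry dates in place of symbols, 0.231% of H19KO and 0.229% of WT counts, stayed in the totals.

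Libraries were scaled by TMM (edgeR 4.0.16). Intervals are exact conditional binomial (Clopper-Pearson) ones. Changes in the ratio of one gene to another carry the exact conditional interval of the odds ratio, over 16 gene pairs. Genes of a mean of at least 1 CPM were counted, 13928 in all. Exon lengths, coordinates and overlaps came from GENCODE M21, with 23350 of 24421 rows matched by symbol. Copies were sought with BLAST 2.17.0 at 95% identity over at least 200 bases. Promoters came from RefSeq (GRCm38.p6). The members, lists, limits and alternatives were chosen with earlier results of these data known. All members were named, and from each further sterol, fatty acid or steroid list up to 4 called genes and the most abundant one. Pdss1, Coq2, Srebf1, marker genes, and genes sharing sequence with members, were chosen for naming after their values were seen. The procedure was tested on simulated counts that held counting error alone, without variation between mice or preparations. At a true log2 ratio of -0.58, 37 of 50 genes were called, and at 0, 3 of 13716 were. Such a test cannot show how the calls hold up between animals. Python 3.11.15, scipy 1.17.1 and R 4.3.3 were used.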

Additional observations from a re-analysis of the deposited data

How the results depend on the processing

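Of the 140 values of single members under other settings (total counts, median-of-ratios scaling by DESeq2 1.42.0, totals that omit the top 10 genes, and 5 added to each scaled count), all 140 kept their sign and lay inside the main counting interval. The other scalings moved the ratios of all measured genes very little. The median shift was 0.0103 log2 units for total counts, -0.008 for median-of-ratios and 0.0031 without the top 10 genes. The 140 values thus had little room to change, and their agreement is a weak check. The count of 12 lower members was 11 under total counts, where Insig1 was lost. The counts of 12 lower and 1 higher members also depended on the rule. They were 25 lower and 7 higher for intervals on either side of equal, where 24.0% and 22.2% of all measured genes were called. They were 5 lower and 0 higher past 1.5-fold, where 1.21% and 1.80% were, and 0 and 0 past 2-fold. By the point ratio past the limit of 0.32 log2 units, 2 members were higher, against 11.3% of all genes. Under total count scaling the median of the genes of LDL receptor control and cholesterol transport turned from just below 0 to 0.00689. With a minimum of 5 CPM, 1 in place of 2 sterol genes outside the module was higher, because Ch25h was then not counted. No paired analysis was possible because only 1 library stood for a genotype, and none could be left out in turn. Depth limits Tm7sf2, Nr1h3 and Cyp27a1 most, at 192 to 353 counts a library.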
